A study of Mus musculus with 3 samples.

Results

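The small RNAs described here are the 441489 sequences of 29 to 32 nt among the 2219118 distinct sequences that the authors listed for the series, 19.9% of the list. They were chosen by the number of their letters alone. The study immunoprecipitated 2 proteins from mouse testes of the C57BL/6 strain and sequenced the small RNAs bound to them. Its 3 libraries came from Tdrd1 complexes of adult testes, from Mili complexes of Tdrd1-knockout testes at 15 days after birth, and from Mili complexes of adult wild-type testes, 1 library per group. The labels describe neither the knockout allele nor the antibodies, and the knockout library differs from the adult wild-type one in age as well as genotype. The list pools the 3 libraries, with 1 row for each distinct sequence and its place on mm9 (NCBI mouse build 37), and it names neither a library nor a read number. The values below are therefore shares of distinct sequences in the pooled list, values per library were not analysed here, and the depth is unknown.

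PIWI-interacting RNAs (piRNAs) are small RNAs of animal germ cells that are bound by Piwi proteins and guide them to transposons and other transcripts. In the mouse testis Mili (gene Piwil2) is known to carry shorter piRNAs than Miwi (gene Piwil1), which appears in later germ cells and carries longer ones. Tdrd1, with its Tudor domains, is a germ-cell partner of Mili. A piRNA is cut from a long single-stranded precursor, its 5′ end is set first and usually carries U, and its 3′ end is then cut back until the Piwi protein covers it. Several lengths can therefore share a 5′ end. Per the labels, RNA of about 28 to 30 nt was cut from a gel for all 3 libraries, so that the gel bears on every length in the list.

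Many of the longer sequences were listed with shorter ones that began at the same base, and the following sets show this relation. At 54 places all 9 lengths from 24 to 32 nt were listed from a single 5′ end. The set below lies on the plus strand of chromosome 17 in the 20 kb window with most sequences of 29 to 32 nt. It starts at 27466066, and its longest member spans chr17:27466066-27466097 on mm9. Letters are those of the deposited list, with T for U, written 5′ to 3′, and capitals mark the first and the last base, whose values are given below.
24 nt: TacaatacaggcttggaagaaagA
25 nt: TacaatacaggcttggaagaaagaG
26 nt: TacaatacaggcttggaagaaagagG
27 nt: TacaatacaggcttggaagaaagaggT
28 nt: TacaatacaggcttggaagaaagaggtT
29 nt: TacaatacaggcttggaagaaagaggttC
30 nt: TacaatacaggcttggaagaaagaggttcC
31 nt: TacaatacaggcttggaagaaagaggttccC
32 nt: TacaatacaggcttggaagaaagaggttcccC

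In this set every sequence started with U, and those of 29 to 32 nt all ended on C. Each of the windows on either side held another such set. One lay on the plus strand, with its longest member at chr17:27487007-27487038, and the other on the minus strand, with its longest member at chr17:27441982-27442013. Their sequences of 29 to 32 nt are shown because their last bases were mixed. C stood at the end of the sequence of 32 nt in both sets, but at 29 nt the last bases were G and A, and at 30 nt they were A in both.
Plus strand, 29 nt: TagaaggacagagtcaacacacacatgaG
Plus strand, 30 nt: TagaaggacagagtcaacacacacatgagA
Plus strand, 31 nt: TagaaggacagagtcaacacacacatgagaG
Plus strand, 32 nt: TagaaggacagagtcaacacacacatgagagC
Minus strand, 29 nt: TgacacagcactggaaaattaaaatacaA
Minus strand, 30 nt: TgacacagcactggaaaattaaaatacaaA
Minus strand, 31 nt: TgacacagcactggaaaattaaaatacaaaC
Minus strand, 32 nt: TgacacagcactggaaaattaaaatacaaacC

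Other sequences of 29 to 32 nt stood alone at their 5′ end, with no other length of 24 to 32 nt listed there. The 5 below are the first such sequences in the list within the coding part of Rad51ap2, Resf1, Eea1, Arhgap5 and Zfp518a, genes with a high share of long sequences that are described further on. They lie at chr12:11463161-11463190, chr6:149273979-149274007, chr10:95489299-95489327, chr12:53617234-53617263 and chr19:40986141-40986169, all on the plus strand.
Rad51ap2: GgatgtcgggacagaacattccaggcgcaC
Resf1: TatgaattggaatacaaaacaagagaatG
Eea1: TgaaaagttaagtcaagattcaaagacaC
Arhgap5: TatgatggcaaaaaacaaagagcctcgacC
Zfp518a: TattttgtgatgaaaaaccaactattttG

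Most sequences of 29 to 32 nt were close to the lower bound. There were 258270 of 29 nt (58.5%), 133673 of 30 nt (30.3%), 44142 of 31 nt (9.998%) and 5404 of 32 nt (1.22%). Just outside the bounds stood 432460 sequences of 28 nt and 228 of 33 nt. The sequences of 24 to 28 nt, the range known for Mili, numbered 1735253 and serve as the comparison throughout. Strand was inferred for 87.9% of the sequences of 29 to 32 nt and for 87.9% of those of 24 to 28 nt. Plus-strand sequences were 50.8% of the long ones so called.

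Long sequences started with U more often than shorter ones. U was the first base of 74.9% of them (95% interval 74.8 to 75.03%), against 67.1% of sequences of 24 to 28 nt (67.1 to 67.2%). The difference was 7.76 percentage points (7.61 to 7.90, Newcombe interval). Intervals here are exact Clopper-Pearson 95% intervals unless named otherwise. They cover counting error only, and overlapping sequences of 1 transcript are not independent, so that real errors are larger. No test across conditions is possible with 1 library per group in a pooled list. The difference was positive on all 19 autosomes and on X, between 4.70 points on X and 10.5 points on chromosome 17. A, C and G each started fewer long sequences than short ones. G differed most in proportion, with 10.8% at 24 nt, 6.12% at 29 nt, 5.08% at 30 nt, 3.79% at 31 nt and 2.48% at 32 nt.

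The last base differed with length too. C ended 34.4% of the long sequences and 24.1% of those of 24 to 28 nt, while G ended 14.3% and 23.8% and A ended 21.9% and 27.3%. U ended 29.4% and 24.7%. Length by length, C ended 22.7% of sequences at 24 nt, 19.99% at 25 nt, 21.1% at 26 nt, 24.6% at 27 nt, 28.9% at 28 nt, 32.5% at 29 nt, 35.2% at 30 nt, 40.8% at 31 nt and 51.1% at 32 nt (49.7 to 52.4%). G went the other way over the same lengths, with 30.2% at 24 nt, 28.2% at 25 nt, 26.5% at 26 nt, 22.95% at 27 nt, 19.1% at 28 nt, 16.6% at 29 nt, 12.6% at 30 nt, 7.85% at 31 nt and 3.52% at 32 nt (3.04 to 4.04%). From 25 nt on, each added base went with a higher share of C and a lower share of G. C was more frequent at the 3′ end of long sequences than of short ones on all 20 chromosomes named above, by 8.82 to 11.9 points. The sources used here do not give how the 3′ adapter was removed.

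At 27 to 32 nt from a 5′ end, listed 3′ ends held more C than the transcripts did at that distance. Among 808639 distinct 5′ ends sense to protein-coding exons, the transcript base at position 30 was C in 22.3%, G in 25.1%, A in 27.4% and U in 25.2%. Where a sequence of 30 nt was in fact listed, the base at position 30 was C in 35.2% (34.9 to 35.5%), G in 12.8%, A in 21.7% and U in 30.3%. At position 32 the share of C was 51.9% where a sequence of 32 nt was listed and 22.3% over all 5′ ends, and that of G was 3.71% and 26.04%. At position 26 the bases of listed ends and of all 5′ ends lay close together, with C at 21.1% and 21.0% and G at 27.2% and 28.7%. The ratio of listed to all ends for C was 1.25 at 24 nt, 0.985 at 25 nt, 1.003 at 26 nt, 1.13 at 27 nt, 1.29 at 28 nt, 1.44 at 29 nt, 1.58 at 30 nt, 1.84 at 31 nt and 2.32 at 32 nt. Sequences of 24 nt thus stood outside the order of the longer ones.

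The base after the 3′ end was U more often beyond long sequences. U directly after a 3′ end is a known mark of piRNA precursors cut by the endonuclease of primary piRNA biogenesis, the enzyme encoded by Pld6. It was read from the matching mRNA, and it was U after 29.2% of the long sequences (29.01 to 29.4%) and after 24.9% of those of 24 to 28 nt (24.8 to 24.98%). The next position was U in 26.2% and 24.1%. By length the share of U directly after the end was 26.6% at 24 nt, 22.9% at 25 nt, 23.5% at 26 nt, 25.5% at 27 nt, 26.1% at 28 nt, 27.9% at 29 nt, 30.4% at 30 nt, 32.1% at 31 nt and 34.2% at 32 nt. G was less frequent there after long sequences, with 22.4% against 27.1%, so that U did not move alone.

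Inside the sequences the long ones held more A and less G. Over positions 2 to 24 they were 35.4% A, 19.1% C, 23.7% G and 21.8% U, against 31.9% A, 17.0% C, 28.8% G and 22.2% U in sequences of 24 to 28 nt. A at position 10, the mark of piRNAs made by the amplification cycle in which a cut guided by one piRNA makes the 5′ end of the next, was found in 36.6% of long and 31.6% of shorter sequences. It did not stand out from its neighbours, since positions 11 and 12 of long sequences held 37.05% and 37.3% A. The position with most A was position 5, with 43.7% in long and 41.5% in shorter sequences.

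A listed sequence of 24 to 28 nt with the same 5′ end was found for 187919 long sequences (42.6%, 42.4 to 42.7%). The share with any shorter sequence of at least 24 nt at the same 5′ end was 29.5% at 27 nt, 38.0% at 28 nt, 44.1% at 29 nt, 47.9% at 30 nt, 49.0% at 31 nt and 48.6% at 32 nt. More shorter lengths were open to a longer sequence, which bears on this order. A sequence exactly 1 nt shorter was listed for 30.7% at 29 nt, 27.9% at 30 nt, 25.2% at 31 nt and 23.02% at 32 nt. The 3′ end of a long sequence was shared with a sequence of 24 to 28 nt in 26.2%, and both ends were so shared in 17.6%. Seen from the other side, 17.2% of sequences of 24 to 28 nt shared their 5′ end with a long one.

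The first base differed between shared and unshared 5′ ends. The counts of 5′ ends in this paragraph leave out sequences without an inferred strand. Each 5′ end counted once, U was first at 81.7% of the 146986 ends listed in both length ranges (81.5 to 81.9%). It was first at 63.97% of the 185856 ends listed at 29 to 32 nt only (63.8 to 64.2%) and at 58.5% of the 920868 ends listed at 24 to 28 nt only (58.4 to 58.6%). By sequence, U started 83.4% of long sequences whose 5′ end was also listed at 24 to 28 nt and 68.6% of the others. Those others include the long sequences without a strand. Ends found in both ranges carried 3.31 listed lengths on average, ends found only as long sequences 1.08 and ends found only as short ones 1.33. A place that is sampled more deeply shows more lengths, and read numbers that could separate depth from the choice of end are not in the list. Among 5′ ends with a long sequence, 85.8% had a single length of 29 to 32 nt and 0.164% had all 4. The share starting with U was 69.3% with 1 such length, 86.5% with 2, 91.4% with 3 and 94.5% with 4 (92.2 to 96.3%).

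The last base depended less on whether the 5′ end was shared. C ended 30.7% of long sequences whose 5′ end was also listed at 24 to 28 nt (30.5 to 30.9%) and 37.1% of the others (36.9 to 37.3%). Both values lay above the 24.1% of shorter sequences. G ended 15.6% and 13.4%, below the 23.8% of shorter sequences. The base after the 3′ end was U in 28.4% and 29.8%.

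Exons of protein-coding genes were the source of more long than short sequences, in proportion. Sense matches to them made up 60.4% of the long sequences (60.2 to 60.5%) and 49.99% of those of 24 to 28 nt (49.9 to 50.1%). Sequences matching no annotated exon made up 33.2% (33.1 to 33.4%) and 42.6% (42.5 to 42.7%), and long noncoding RNAs 3.02% and 3.91%. Pseudogenes gave 0.721% and 0.595%, the antisense strand of exons 2.53% and 2.79%, structural RNAs such as ribosomal and small nuclear RNA 0.104% and 0.0792%, and microRNA genes 0.0245% and 0.0423%. These classes follow the annotated type of the gene. Outside annotated exons U started 79.0% of long and 68.6% of shorter sequences, and in protein-coding exons 72.6% and 66.1%. In structural RNAs U started 44.3% of long sequences (40.1 to 48.5%) and 41.2% of shorter ones (38.8 to 43.6%), with intervals that overlapped.

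Within mRNAs the long sequences lay further towards the 3′ untranslated region. Of the long sequences matching coding transcripts, 57.1% lay there (56.9 to 57.3%), against 52.9% of shorter ones (52.8 to 53.0%). The coding sequence held 39.8% and 42.8% and the 5′ untranslated region 3.12% and 4.29%. Put the other way, 25.1% of sequences from 3′ untranslated regions were long, 22.3% of those from coding sequence and 18.03% of those from 5′ untranslated regions. The first base followed the part of the mRNA in both ranges. U started 79.6% of long and 73.7% of short sequences of the 3′ untranslated region, 64.4% and 58.4% in coding sequence, and 69.5% and 61.9% in the 5′ untranslated region. C ended 31.5% and 22.1% in the 3′ untranslated region, 37.4% and 26.1% in coding sequence, and 40.1% and 28.3% in the 5′ untranslated region. In all 3 parts both shares were higher in long sequences.

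The differences in base were also seen gene by gene. Among the 1262 protein-coding genes with 50 or more sequences in both length ranges, the share starting with U was higher in long sequences in 1077 (85.3%), with a median difference of 5.70 points. The share ending on C was higher in long sequences in 1211 (96.0%), with a median difference of 9.86 points. These genes were taken for their number of sequences and share the libraries, so that the counts describe the list only.

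Windows rich in small RNAs, which in the testis are known as piRNA clusters, held few long sequences for their size. In the 100 richest windows of 20 kb, long sequences made up 11.8% of the sequences of 24 to 32 nt (11.7 to 11.9%), against 22.3% elsewhere (22.3 to 22.4%). The 100 windows with most long sequences held 12.2% of these, whereas the 100 windows with most sequences of 24 to 28 nt held 21.5% of those. Outside the windows the share was 20.2% where no exon matched and 23.5% in protein-coding exons. Inside the windows it was 10.9% where no exon matched, and the share in protein-coding exons there is not given here. In single windows among the 100 the share of long sequences ran from 8.08 to 29.1%, with a median of 10.7%. Over all sources U was first in 74.8% of long sequences inside and 74.9% outside. Where no exon matched, the places differed, with U first in 75.3% of long sequences inside (74.8 to 75.7%) and 80.4% outside (80.1 to 80.6%). In sequences of 24 to 28 nt U was first in 58.2% inside and 69.6% outside over all sources. Where no exon matched it was first in 57.9% and 76.4% of these. The gap between long and short sequences was thus wider inside the windows.

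The window with most long sequences was 27460001 to 27480000 of chromosome 17, with 1837 long sequences among 13772 of 24 to 32 nt (13.3%, 12.8 to 13.9%). Its neighbours followed with 1413 (12.7%) on the right and 1385 (11.3%) on the left. Plus-strand sequences made up 90.9% of the called long ones in the first window, 99.2% in the right one and 1.30% in the left one. Next came 67560001 to 67580000 of chromosome 9 with 1242 (10.95%), 24900001 to 24920000 of chromosome 14 with 1128 (11.9%), 92400001 to 92420000 of chromosome 2 with 1027 (10.7%), 127740001 to 127760000 of chromosome 6 with 979 (10.5%) and 67200001 to 67220000 of chromosome 18 with 952 (10.9%). In all 8 the long sequences were below the 20.3% of the whole list, and U started 68.0 to 76.8% of them against 50.5 to 59.0% of the shorter ones.

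Among the 154 windows with 1000 or more sequences of 24 to 32 nt, the share of long ones ran from 5.02 to 36.99% with a median of 12.2%, and 54 windows stood above the share of the whole list. The 6 windows with the highest shares each held exons of 1 protein-coding gene that matched most of their long sequences. Zfp518a, which encodes a zinc-finger protein, lies in the window at 40980001 to 41000000 of chromosome 19 (36.99%, 34.2 to 39.8%). Tex15, a gene needed for meiosis and for silencing of transposons in the male germ line, lies in the one at 34680001 to 34700000 of chromosome 8 (35.6%, 32.9 to 38.3%). The histone gene Hist1h1a (31.1%), Tmem170b (30.7%), Pou2f1 (30.0%) and Setd2 (30.0%) marked the other 4. In the histone window U started 56.3% of long and 46.3% of shorter sequences, the lowest values of these 6.

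The lowest share, 5.02% (3.76 to 6.55%), was that of the window at 92440001 to 92460000 of chromosome 2, with 51 long sequences of 1015. Shares of 6.38% and 8.08% stood at adjacent windows from 87900001 to 87940000 of chromosome 6, and 7.52% at 59120001 to 59140000 of chromosome 15, 7.63% at 66520001 to 66540000 of chromosome 17 and 7.75% at 54100001 to 54120000 of chromosome 9. The long sequences of these 6 windows started with U in 67.1 to 82.4%.

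Long sequences came from many genes. Of 21951 annotated protein-coding genes 13028 had at least 1 in the sense direction, and the 2195 genes with most held 64.2% of gene matches. D10Wsu102e had 971 long sequences, but only 7.88 per kb of exon. Pou2f1, which encodes a POU-domain transcription factor, had 702 (42.3 per kb), lying between 167795324 and 167882985 of chromosome 1. The tyrosine kinase gene Abl2 had 610 (56.5 per kb), between 158555666 and 158579621 of the same chromosome. Trim71, which encodes an RNA-binding protein of embryonic cells, had 521 (55.8 per kb). Cenpf, the gene of a centromere protein, had 467, the histone methyltransferase gene Setd2 465, Smcr8 463 (57.3 per kb) and Rbbp6, whose protein binds the retinoblastoma protein, 458. Of the long sequences of each of these 8 genes, 0 matched a further gene. In Abl2 609 and in Smcr8 359 of them lay in the 100 richest windows, and in the other 6 genes 0 did.

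The share of long sequences differed between these genes. It was 30.6% in Cenpf (28.3 to 32.9%), 30.5% in Pou2f1 (28.6 to 32.4%), 29.5% in Rbbp6 and 29.2% in Setd2. It was 21.8% in D10Wsu102e (20.6 to 23.1%) and 24.7% in Smcr8. All sequences sense to protein-coding exons stood at 23.5% (23.4 to 23.6%). In Rbbp6 U started 51.1% of long and 45.1% of shorter sequences, the lowest values of the 8 genes, and in D10Wsu102e 80.3% and 74.5%, the highest.

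Over the 5969 protein-coding genes with 50 or more sense sequences of 24 to 32 nt, the median share was 22.8% and the quartiles were 18.7 and 26.8%. The interval of 529 genes (8.86% of those tested) lay wholly above the pooled 23.5%, and that of 598 (10%) wholly below it. With a minimum of 200 sequences 305 genes lay above. Among the 1318 genes with 200 or more sequences the share ran from 7.64 to 44.3%. The highest were Rad51ap2, with 104 long sequences of 235 (44.3%, 37.8 to 50.9%), and Resf1, a gene of retroelement silencing, with 248 of 639 (38.8%, 35.0 to 42.7%). Next came the endosome gene Eea1 with 38.5%, Smim13 with 38.1%, the GTPase regulator gene Arhgap5 with 37.1% and Zfp518a with 37.01% (443 of 1197). U was first more often in long than in short sequences in 5 of these 6 genes, and in Smim13 it was first in 78.0% of long and 82.4% of short ones.

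The lowest shares among these genes were those of Elfn2, with 49 long sequences of 641 (7.64%, 5.71 to 9.98%), and the Cdc42 effector gene Cdc42ep3, with 21 of 229 (9.17%). The golgin gene Golga2 stood at 9.38%, Snrnp35, a gene of the minor spliceosome, at 9.79%, Wdfy3, a gene of selective autophagy, at 11.9%, and the condensin gene Ncaph2 at 12.5%. Between 21 and 63 long sequences stand behind each of these 6 values. Of the 49 long sequences of Elfn2, 31 lay in the 100 richest windows, and 0 of those of the other 5 genes did.

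The base content of a gene went with its share of long sequences. Across the 5969 genes Spearman's rank correlation with the share was −0.42 for the G content of the longest transcript, −0.32 for C, 0.35 for A and 0.31 for U. The genes share the libraries and are not independent, and the correlation was 0.23 with the number of sequences and 0.12 with exon length. When genes were put into 5 equal groups by G content, long sequences made up 27.2% of sequences in the group with least G (16.1 to 22.4% G), then 25.2%, 23.3% and 21.8%, and 20.1% in the group with most G (27.3 to 38.9% G). The interval lay wholly above the pooled share for 270 of 1194 genes in the group with least G and 17 of 1193 in that with most. Long sequences started with U more often than short ones in each of the 5 groups, with 76.4% and 70.3% at least G and 66.3% and 60.03% at most G. They also ended on C more often in each, with 29.4% and 20.9% at least G and 39.6% and 26.4% at most G.

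Several noncoding genes in rich windows had low shares. Gm49794 on chromosome 17 had the most long sequences among noncoding genes, 965 of 6910 (14.0%, 13.2 to 14.8%), all inside rich windows. 1700001L05Rik on chromosome 15 had 593 (17.8%), Gm21269 on chromosome 7 had 553 (10.4%, 9.64 to 11.3%), Gm10505 on chromosome 17 had 409 (13.4%) and Gm30132 on chromosome 8 had 238 (13.5%). Higher shares were found for 1700020I14Rik, with 318 of 1066 (29.8%, 27.1 to 32.7%) and 0 of its long sequences in a rich window, and for AU020206, with 285 of 1019 (28.0%), all in rich windows. Gm42418, with long sequences between 39983974 and 39985175 of chromosome 17, stood apart by its first base. All 347 of its long sequences lay in rich windows. Although 31.3% of its sequences were long, U started only 23.9% of these and 18.4% of the shorter ones. Its annotated type is long noncoding RNA, so that its sequences were not counted as structural RNA. Whether they are piRNAs was not tested.

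Among the lists of testis genes, those of spermatogonia and meiotic cells had the most long sequences per kb of exon. The libraries hold small RNAs bound to Tdrd1 or Mili, so that these values do not measure the mRNA of a cell type. The number of cells of a type, their RNA and the part of it found as bound small RNAs cannot be told apart. All 8 spermatogonial genes had some, with a median of 11.9 long sequences per kb of exon, against a median of 0.506 over all protein-coding genes. At 24 to 28 nt the medians were 49.6 and 2.27 per kb, so that these genes were also dense in shorter sequences. Sall4, a transcription factor gene of stem cells, had 106 of 416 (25.5%), and the RNA-binding protein gene Dazl 94 of 306 (30.7%, 25.6 to 36.2%). The transcription factor gene Zbtb16 had 52 of 283 (18.4%, 14.0 to 23.4%). Of the 8 genes tested 1 lay above the pooled share and 1 below, with a median share of 22.1%, beside 8.86% and 10% of all genes tested and their median of 22.8%.

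The meiotic list split into genes of high and of low share. All 8 genes had long sequences, with a median of 9.88 per kb, and 29.3 per kb at 24 to 28 nt. Of the 7 tested, 4 lay above the pooled share and 2 below, and the median share was 29.2%, beside 8.86% above and 10% below among all genes tested and their median of 22.8%. Above it were the synaptonemal complex genes Sycp1 with 78 of 267 (29.2%, 23.8 to 35.1%), Sycp2 with 46 of 148 (31.1%) and Sycp3 with 63 of 207 (30.4%), and the mismatch repair gene Mlh3 with 91 of 319 (28.5%). Below it were Ldhc, the gene of the sperm lactate dehydrogenase, with 9 of 131 (6.87%, 3.19 to 12.6%) and the recombinase gene Dmc1 with 8 of 65 (12.3%, 5.47 to 22.8%). Intervals narrow with the number of sequences, so that a gene with many clears the pooled share more readily. Of the 1318 genes with 200 or more sequences 305 lay above it, and Sycp1, Sycp3 and Mlh3 are of that size.

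Genes of haploid spermatids gave 14 long sequences in all, and 0 of these 10 genes reached 50 sequences. The protamine gene Prm2 had 3 of 33, the transition protein gene Tnp1 2 of 33 and the outer dense fibre gene Odf1 3 of 32 (9.38%, 1.98 to 25.02%), while Acrv1, Spata18 and Tssk2 had 0. The median was 1.37 long sequences per kb and 7.49 per kb at 24 to 28 nt, against 0.506 and 2.27 over all protein-coding genes.

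All 15 genes of the piRNA pathway had long sequences, with a median of 2.47 per kb, and 20.4 per kb at 24 to 28 nt. Of the 12 tested 1 lay above the pooled share and 3 below, with a median share of 17.7%. Among all genes tested 8.86% lay above and 10% below, so that the 1 gene above was near the background. Mael, whose protein acts in piRNA biogenesis and transposon silencing, had 47 of 150 (31.3%, 24.02 to 39.4%). Piwil2, the gene of Mili, had 80 of 326 (24.5%, 19.97 to 29.6%) and the RNA helicase gene Mov10l1 75 of 337 (22.3%). Piwil1, the gene of Miwi, had 2 of 55 (3.64%, 0.443 to 12.5%), Tdrd9 10 of 90 (11.1%) and Tdrd1 itself 20 of 131 (15.3%, 9.58 to 22.6%). These 3 made up the genes below the pooled share.

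Genes of somatic testis cells had few. The 8 genes of Sertoli cells, which nurse the germ cells, had 32 long sequences in all, 25 of them in the cathepsin gene Ctsl (25 of 98, 25.5%), and Amh and Rhox5 had 0. The 6 genes of Leydig cells, which make testosterone, had 24, of which 23 were in Star (23 of 78, 29.5%), whose protein brings cholesterol into mitochondria. Cyp11a1, Cyp17a1, Hsd3b6 and Lhcgr had 0. A share of 0 in a gene says only that no such sequence was listed. The 6 housekeeping genes had 125 long sequences, 75 of them in the chaperone gene Hsp90ab1 (27.7%), and Gapdh had 0. Their median was 5.03 long sequences per kb, also above the 0.506 of all protein-coding genes.

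Among 6 heat shock genes, all tested, 1 lay above the pooled share and 0 below, which in so short a list is near the 8.86% and 10% of all genes. The 1 above was Hspa4l with 60 of 193 (31.1%, 24.6 to 38.1%), and the spermatocyte chaperone gene Hspa2 had 44 of 180 (24.4%). The median of the 6 heat shock genes was 5.51 long sequences per kb. Of 8 cell cycle genes 2 were tested, and neither Ccna2 with 39 of 178 (21.9%) nor Cdk1 with 16 of 51 (31.4%) lay beyond the pooled share.

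Long sequences formed pairs on opposite strands whose 5′ ends overlapped by 10 nt, the offset left by the amplification cycle. Between 2 long sequences there were 159 such pairs, against a mean of 72.1 ± 15.2 (SD) at overlaps of 1 to 9 and 11 to 20 nt and a highest value of 98, a ratio of 2.21. Between a long and a shorter sequence there were 1289 against 594.9 ± 76.0 (ratio 2.17), and between 2 sequences of 24 to 28 nt 3063 against 1390 ± 199 (ratio 2.20). Counted by sequence, the 3 ratios thus lay close together. With each 5′ end counted once they lay further apart, at 2.07, 1.81 and 1.62 in the same order. Pairs could come from different libraries, since the list pools them.

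Few long sequences had such a partner of 24 to 32 nt in the list, 951 of 388108 with a strand (0.245%, 0.230 to 0.261%), against 0.285% of shorter ones (0.277 to 0.294%). Of the 951, 60.7% (57.5 to 63.8%) lay in the 100 richest windows, which hold 11.3% of all long sequences, and 21.1% were sense to protein-coding exons. Dense windows offer more pairs at any overlap, and the share at other overlaps is not given here. Other overlaps averaged 72.1 pairs against 159 between 2 long sequences, and 594.9 against 1289 between a long and a shorter one. U started 76.7% of the 951 (73.8 to 79.3%). A stood at position 10 in 56.9% (53.7 to 60.1%), against 36.6% of all long sequences, but position 10 of a partnered sequence faces the first base of its partner, so that this share follows from how many partners start with U.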

How the data were processed

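Small RNAs from 3 immunoprecipitates of mouse testis were sequenced, 1 library per group. The file deposited by the authors lists each distinct sequence once with its chromosome and position, on NCBI mouse build 37 per the file headers and mm9 per the submitters' processing notes. It gives no read number, strand or library, and lengths run from 18 to 36 nt. The sources used here do not give the aligner, the adapter removal or the placement of repeated sequences. The members and gene lists were chosen with earlier results of these data known.

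Strand was taken from stretches of 12 nt shared with overlapping sequences, otherwise from the matching transcript; where both were known they were the same for 99.9% of long sequences. Sequences were matched over their whole length, from a seed of 18 nt, to GENCODE vM21 transcripts on the listed chromosome, by sequence since that annotation is of another build. Transcript strand and coding parts came from that annotation. Sequences matching several classes were split equally, and the midpoint set the part of an mRNA. A gene was tested with 50 or more sequences, by whether its Clopper-Pearson interval lay wholly to one side of the pooled share. Windows were counted by start. Steps were tested on simulated data.

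Named by rule were the genes and windows with most long sequences and those with the highest and lowest shares, with minimums of 200 sequences for genes and 1000 for windows, and members of each list with most sequences; list members with few sequences were added after their values were seen. Python 3.11.15, numpy 2.4.6, pandas 2.3.3, scipy 1.17.1, statsmodels 0.14.6 and numba 0.67.0 were used. A few of the genes so named are not reported here. Comparisons between libraries were not computed, since the list names none.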

Additional observations from a re-analysis of the deposited data

Results flagged for a closer look

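Sequences longer than 32 nt numbered 307 and stand outside the lengths described above, which is why they are given here. Of them 228 measured 33 nt. U started 63.8% of the 307 (58.2 to 69.2%), against 74.9% of sequences of 29 to 32 nt. At 33 nt alone U started 75% (68.9 to 80.5%), so that the lower value of the 307 came from the longer ones among them. C ended 47.9% of the 307 (42.2 to 53.6%), against 34.4% of sequences of 29 to 32 nt.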

How the results depend on the processing

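Of 25 alternative values 7 lay within the counting interval of the reported value (for the count of genes, within 1.5 times it), 18 lay outside it, and 0 changed sign. The intervals are narrow, most values are shares that have no sign, and the causes were not tested. The share of long sequences starting with U was 73.0% with each 5′ end counted once, 72.6% in protein-coding exons, 76.8% at 30 to 32 nt and, in a setting chosen after seeing the data, 68.6% where the 5′ end was not listed at 24 to 28 nt. Its excess over shorter sequences was 8.62 points with each 5′ end counted once, 5.32 points outside the richest windows, 6.51 points in protein-coding exons and 6.96 points against 26 to 28 nt. The share with a shorter sequence at the 5′ end was 32.2% with partners of 26 and 27 nt and 37.6% outside the richest windows. The share of long sequences inside rich windows was 13.1% for 200 windows of 10 kb, 10.7% for the 50 richest windows and 17.0% with each 5′ end counted once. The share elsewhere with each 5′ end counted once is not given here, and the 22.3% above was counted by sequence. The share from protein-coding exons was 61.2% without splitting and 60.6% with matches on any chromosome. The share in 3′ untranslated regions was 56.4% when the 5′ end set the part. Genes above the pooled share numbered 305 with a minimum of 200 sequences, where fewer genes are tested. U after the 3′ end stood at 28.4% where the 5′ end was shared with a shorter sequence. No paired analysis was possible because each group has 1 library and the list names no library. Unknown read numbers limit all values, since an abundant and a rare sequence weigh the same.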

Other observations

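Long sequences were unevenly spread over the chromosomes. They made up 26.1% of sequences of 24 to 32 nt on X (25.6 to 26.5%), above the 17.3 to 23.6% of the 19 autosomes, of which chromosome 17 had the lowest value and chromosome 1 the highest. On the Y chromosome they were 103 of 387 (26.6%, 22.3 to 31.3%). On the mitochondrial chromosome they were 73 of 270 (27.04%, 21.8 to 32.8%), where U started 15.1% of long and 17.3% of shorter sequences, while C ended 38.4% and 27.9%.

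In mouse and fly, piRNAs cut one after the other from a precursor leave the next 5′ end directly behind a 3′ end that has not been cut back. Listed 3′ ends may have been cut back, as described above, so that such cutting was not tested. Of the 365674 distinct 3′ ends of long sequences, 6.61% (6.53 to 6.69%) had a listed 5′ end of a 24 to 32 nt sequence directly behind them on the same strand, against 6.48% at the next position and 6.12 to 6.43% at 3 to 12 nt. For sequences of 24 to 28 nt the value directly behind was 6.71%, within the 6.64 to 6.90% at 2 to 12 nt.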
